A study of Homo sapiens with 6 samples.

Results

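The MIR548 genes encode microRNA precursors of a family found in primates, and their values were compared between cells that express TDNC1 and control cells. The members were chosen by name alone, as every row of the expression table whose platform symbol starts with MIR548. This gave 54 of 53617 rows, for 40 gene symbols. A row is 1 transcript cluster of the Affymetrix Human Gene 2.0 ST array, and its value is on the log2 scale. Of the 40 symbols, 10 have more than 1 row, and every row was kept.

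All 6 arrays were of HEK293, a cell line from human embryonic kidney, in its Flp-In T-REx form, where a construct is inserted at a fixed genomic site. One group stably expressed TDNC1 (3 arrays) and the other a random control RNA (3 arrays). In both groups the stable clones were pooled, the medium held blasticidin, and hygromycin took the place of Zeocin after transfection. The lines are described as inducible, with no mention of an inducer, and the name TDNC1 is not spelled out. The replicates are labelled biological without a statement that they are separate cultures, so p-values measure only the spread between these samples, which may be technical. Of 8 markers listed for HEK293, 4 are named in the table (PAX2, LIN28B, KRT18 and VIM). They lay above between 67.0% and 94.8% of all rows.

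A microRNA is cut from a hairpin in a longer transcript, first by DROSHA with DGCR8 in the nucleus and then by DICER1 in the cytoplasm, and is loaded into an Argonaute protein. Bases 2 to 8 of the mature strand, the seed, do most of the pairing with target messages. The MIR548 genes derive from MADE1, a short transposable element with inverted repeats that folds into a hairpin, and they are scattered over the genome, many of them inside other genes. The array was hybridised with labelled cDNA of total RNA, so a row can report the hairpin or a longer transcript that holds it, and mature strands were not measured on their own. In bulk RNA, fewer cells with a transcript and less transcript per cell cannot be told apart.

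Mature sequences show what the members share and how close they are. RefSeq (GRCh38.p14) gave a mature sequence for 28 of the 40 symbols, with 29 distinct names, 19 to 23 bases long, and 19 distinct seeds. The sequences below are a selection of these, in lower case with the seed in capitals. The other 12 genes, MIR548I1 and MIR548I2 among them, have no sequence here, and some of the 28 have only 1 strand. Sets that share a seed can therefore lack members. The first set shares the seed AAAGUAA, the most frequent one among these sequences, held by 6 of the 28 genes. It is also the seed of hsa-miR-559, which is outside the family.

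hsa-miR-548j-5p: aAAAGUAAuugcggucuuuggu

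hsa-miR-548ab: aAAAGUAAuuguggauuuugcu

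hsa-miR-548b-5p: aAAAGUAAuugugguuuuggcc

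hsa-miR-548w: aAAAGUAAcugcgguuuuugccu

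hsa-miR-548y: aAAAGUAAucacuguuuuugcc

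hsa-miR-548ak: aAAAGUAAcugcgguuuuuga

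The second set shares the 3' seed AAAAACU, held by 5 of the 28 genes and by no mature sequence outside the family. Those of MIR548X and MIR548X2 are the same sequence, on chromosomes 21 and 13.

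hsa-miR-548j-3p: cAAAAACUgcauuacuuuugc

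hsa-miR-548am-3p: cAAAAACUgcaguuacuuuugu

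hsa-miR-548x-3p: uAAAAACUgcaauuacuuuc

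hsa-miR-548aj-3p: uAAAAACUgcaauuacuuuua

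The third set holds other sequences that several measured loci share, and that of MIR548AD, the member with the highest log2 difference. The sequence of miR-548f-3p comes from MIR548F1, MIR548F2 and MIR548F3, and that of miR-548o-3p from MIR548O and MIR548O2. The 5' strands of MIR548G and MIR548X are also identical.

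hsa-miR-548f-3p: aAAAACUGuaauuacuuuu

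hsa-miR-548o-3p: cCAAAACUgcaguuacuuuugc

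hsa-miR-548x-5p: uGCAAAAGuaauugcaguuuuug

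hsa-miR-548ad-3p: gAAAACGAcaaugacuuuugca

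The letters AAAAGUAA and their reverse complement UUACUUUU show the inverted repeat. Of the 29 mature sequences, 10 (34.5%) held AAAAGUAA and 7 (24.1%) held UUACUUUU. Among 2315 other human mature sequences the numbers were 0 and 2 (0.0864%), the 2 being hsa-miR-603 and hsa-miR-126-5p. In MIR548J, on the minus strand of chromosome 22, the 5' strand (chr22:26555274-26555295) and the 3' strand (chr22:26555239-26555259) each hold 1 of these motifs.

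Array medians ranged from 5.16 to 5.22 and lower quartiles from 3.77 to 3.84. No row is named TDNC1, so the expressed RNA itself was not checked. The 1 row that limma called over the whole table was LOC646736, higher in TDNC1 by 6.06 (adjusted p = 1.829e-05), and without TDNC1 replicate 3 there were 23 called rows. Over all rows, TDNC1 replicate 3 differed from control replicate 3 by a median of 0.136. It differed from TDNC1 replicates 1 and 2 by 0.188 and 0.177, while these differed from each other by 0.134. Control replicate 3 likewise differed from control replicates 1 and 2 by 0.162 and 0.16, while these differed from each other by 0.136. Without TDNC1 replicate 3, the log2 difference of 4 MIR548 rows changed sign, those of MIR548A2, MIR548B, MIR548G and MIR548T (row 16972420), and values without it are given where they move most.

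The family gave low signals. A level here is a probe signal, and rows differ in how well their probes bind, so the order of levels is not one of transcript abundance. The median level of its rows over all arrays was 3.07, against 4.21 for the 1182 rows of other microRNA genes and 5.17 for all rows. Of the 54 rows, 32 lay below the lower quartile of every array and 18 had a mean under 2. Array values that low can flatten and differences can be compressed, which was not tested here. Only 4 rows lay above the median of every array, those of MIR548H2, MIR548I2 (row 16974224), MIR548AN and MIR548I1 (row 16951140). At the low end, the row 16767047 of MIR548C had a mean of 1.35, MIR548F1 of 1.45 and the row 17101792 of MIR548AM of 1.52.

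**Figure D1:**
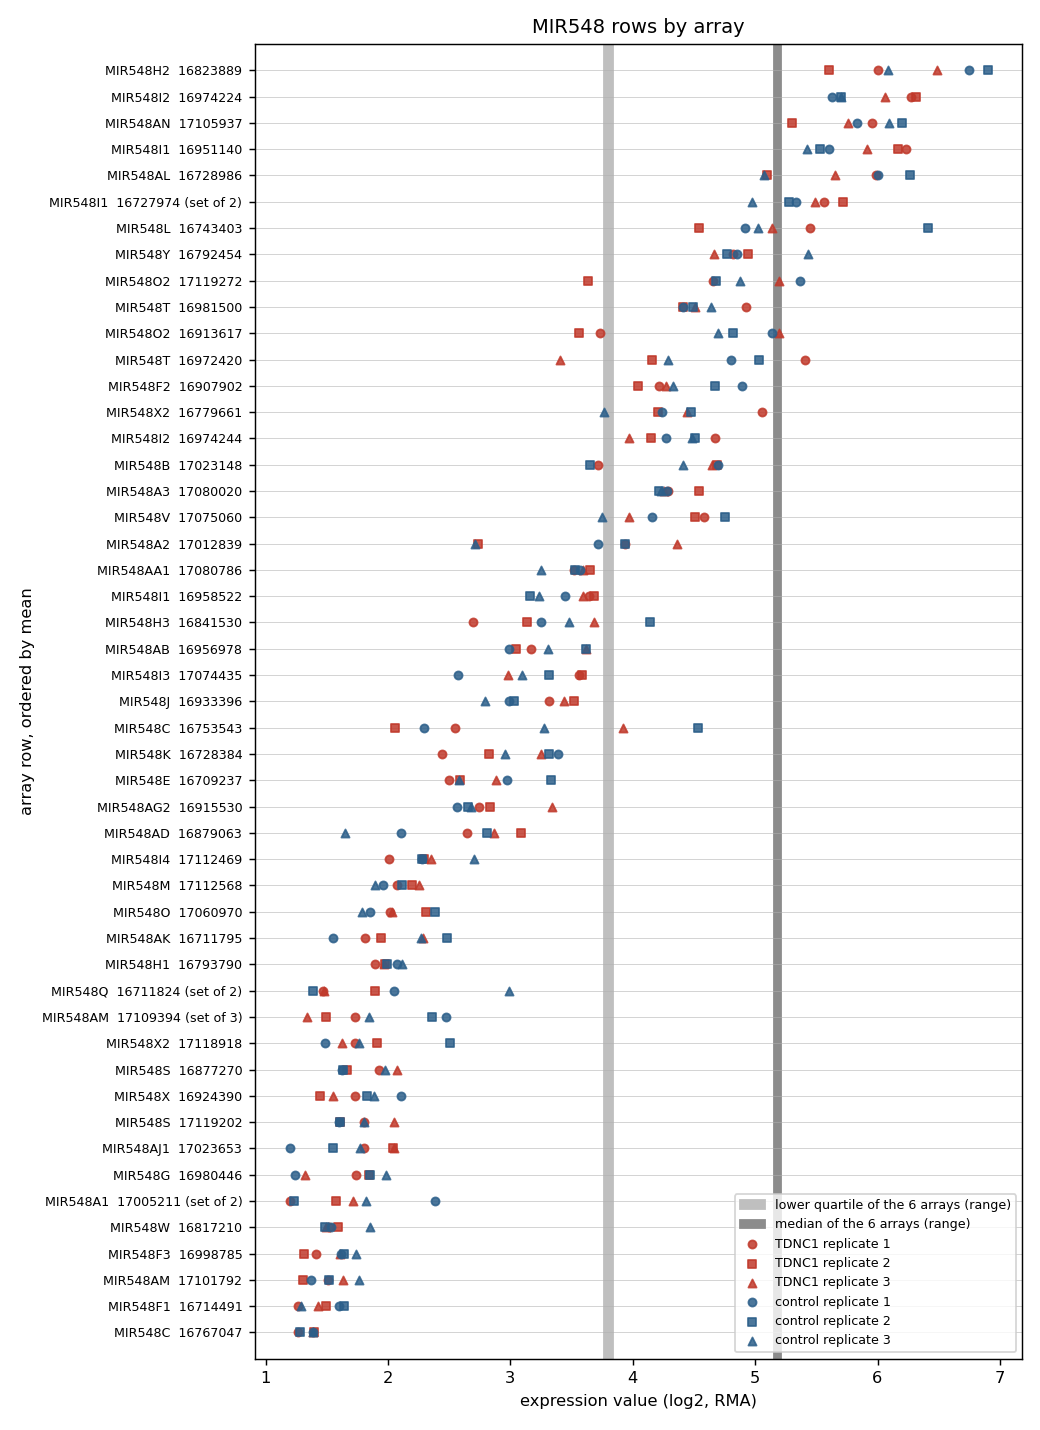
Expression value (log2, horizontal) of the 49 distinct MIR548 rows on each of the 6 arrays, ordered by mean, TDNC1 arrays in red and control arrays in blue with 1 symbol shape per replicate number. Grey bands give the range of the lower quartiles (3.77 to 3.84) and of the medians (5.16 to 5.22) of the arrays; most rows lie left of the first band.

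Base composition was read beside the levels. The mature sequences of the MIR548 rows had a median of 34.8% G and C (37 rows with a sequence), against 48.9% for 1092 other microRNA rows. Among these other rows the level was higher where G and C were more frequent (Pearson's r = 0.59 and Spearman's rho = 0.61 across rows, a description, since rows of 1 array share their scanning and probe chemistry). Across the 28 MIR548 genes r was 0.20 and rho 0.33. The 107 other microRNA rows with at most 34.8% G and C had a median level of 2.10, near that of the 20 MIR548 rows in the same range, 1.85. The part of base composition in the levels was not tested.

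**Figure D2:**
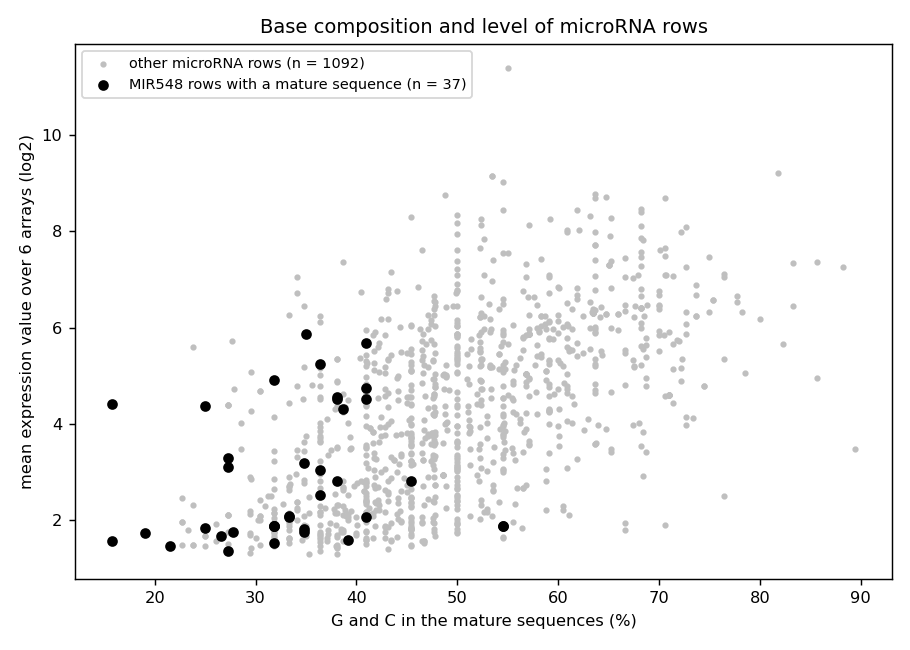
Mean expression value over 6 arrays (log2, vertical) against the share of G and C in the mature sequences (%, horizontal) for 37 MIR548 rows (black) and 1092 other microRNA rows (grey). The MIR548 rows lie at the left and mostly low, with a median of 34.8% G and C.

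No MIR548 row passed limma's moderated test over the whole table (adjusted p from 0.631 to 1.00, called below 0.05), where 1 of 53617 rows (0.00187%) did. The median log2 difference, TDNC1 minus control, was -0.10 over the 54 rows, -0.03 over the other microRNA rows and -0.01 over all rows, with 21 MIR548 rows above 0 and 33 below. Set against the mean of the controls row by row, the family median was -0.09, -0.12 and 0.00 in the TDNC1 arrays. In the control arrays it was -0.01, 0.08 and -0.07, so the groups overlapped. Without control replicate 2 the median log2 difference was -0.01.

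An unadjusted p under 0.05 was found in 13 MIR548 rows (24.1%), against 7.70% of all rows and 7.11% of the other microRNA rows. Of the 13, 8 were higher in TDNC1 (14.8% of the MIR548 rows, all rows 3.74%) and 5 lower (9.26%, all rows 3.96%). All arrays of one group lay above all of the other in 15 MIR548 rows (27.8%), against 13.2% of all rows and 10.3% of the other microRNA rows. Some rows are copies of each other, and with identical MIR548 rows counted once 12 of 49 (24.5%) had no overlap. The count with an unadjusted p under 0.05 was then 10 of 49 (20.4%, all rows 7.67%), 7 of them higher in TDNC1 and 3 lower. Without TDNC1 replicate 2 it was 7 of 54 (13.0%, all rows 5.02%), and without TDNC1 replicate 3 it was 16 of 54 (29.6%, all rows 14.5%).

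The spread between arrays of 1 group was also read. The median SD within a group was 0.27 for the MIR548 rows, 0.19 for the other microRNA rows and 0.16 for all rows. The median size of the difference between the groups was 0.30 in the 35 MIR548 rows below the lower quartile of row means (3.81) and 0.40 in the 19 above it. In the other microRNA rows it was 0.12 on both sides. At up to 34.8% G and C the median SD was 0.25 for 20 MIR548 rows and 0.22 for 107 other microRNA rows, and the sizes of the difference were 0.20 and 0.11. Above it the median SD was 0.44 for 17 MIR548 rows and 0.19 for 985 others, and the sizes were 0.38 and 0.12. What sets the spread was not tested.

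**Figure D3:**
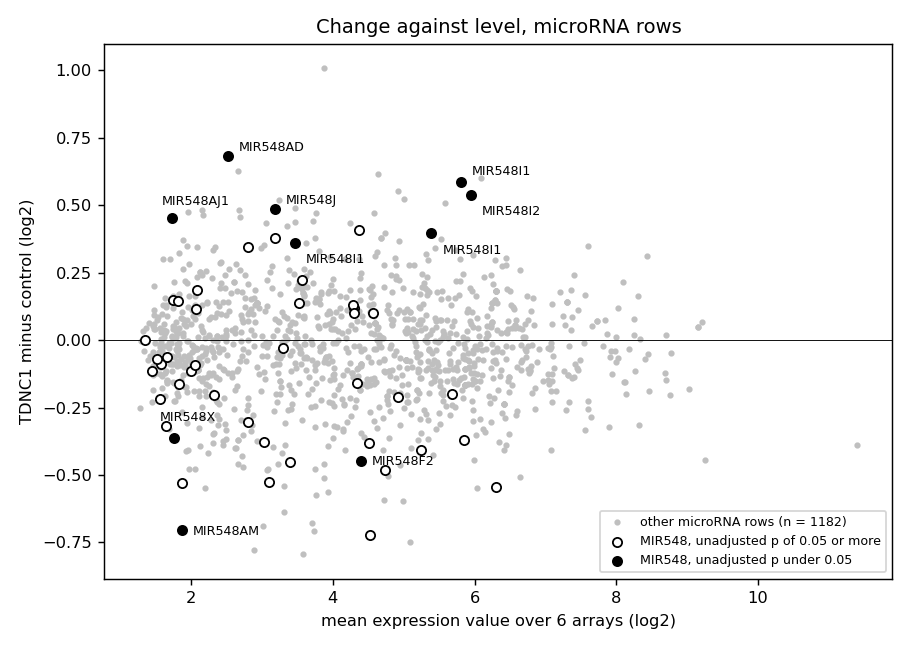
Log2 difference, TDNC1 minus control (vertical), against the mean expression value (log2, horizontal) for 49 distinct MIR548 rows (circles) and 1182 other microRNA rows (grey). Filled circles are the 10 distinct MIR548 rows with an unadjusted limma p under 0.05; they lie on both sides of 0, and no MIR548 row passed after adjustment.

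Of the 7 distinct rows with higher values in TDNC1 at an unadjusted p under 0.05, 3 were of MIR548I1 and 1 of MIR548I2. Row 16974224 of MIR548I2 stood at 6.27, 6.31 and 6.06 in TDNC1 and at 5.63, 5.70 and 5.70 in the control. All TDNC1 arrays were above all control arrays, by 0.54 (SE 0.10, 95% interval 0.30 to 0.78, limma adjusted p = 0.631). Row 16951140 of MIR548I1 stood at 6.24, 6.17 and 5.91 against 5.60, 5.53 and 5.43, a log2 difference of 0.59 (SE 0.12). In both rows TDNC1 replicate 3 was the lowest TDNC1 array, still above the controls.

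The other rows of MIR548I1 had the same direction. Rows 16727974 and 16741538 hold identical values, 5.57, 5.72 and 5.49 in TDNC1, against 5.33, 5.27 and 4.97 in the control, with a log2 difference of 0.40 (SE 0.13). Row 16958522 stood at 3.64, 3.69 and 3.59 against 3.45, 3.16 and 3.23, a difference of 0.36 (SE 0.11). The groups did not overlap in any of the 4 rows of MIR548I1. MIR548I3 had 0.38 (SE 0.24) with overlapping groups, and MIR548I4 -0.20 (SE 0.16). The second row of MIR548I2, 16974244, stood at 4.67, 4.15 and 3.97 against 4.27, 4.51 and 4.49, a difference of -0.16 (SE 0.19), so the higher value was not shared by all rows of the MIR548I genes.

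The remaining rows with higher values at an unadjusted p under 0.05 were those of MIR548J, MIR548AJ1 and MIR548AD, all below the lower quartile of every array. MIR548J stood at 3.31, 3.52 and 3.44 in TDNC1 and at 2.99, 3.03 and 2.80 in the control, with no overlap and a log2 difference of 0.49 (SE 0.11). Its 5' strand has the most frequent seed among the sequences read, shown above. MIR548AJ1 stood at 1.80, 2.04 and 2.04 against 1.20, 1.55 and 1.77, a difference of 0.45 (SE 0.16) with groups that nearly touch. MIR548AD stood at 2.65, 3.09 and 2.87 against 2.10, 2.81 and 1.65, a difference of 0.68 (SE 0.28). Control replicate 2 of MIR548AD lay within the TDNC1 range, and the control arrays alone differ by more than the group means do.

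Among the lower values, 3 rows of MIR548AM (17109394, 17119806 and 17125968) hold the same numbers and count as 1 measurement. They stood at 1.73, 1.49 and 1.34 in TDNC1 and at 2.47, 2.36 and 1.84 in the control. The groups did not overlap, and the log2 difference was -0.70 (SE 0.19), at the dim end of the arrays. The fourth row of the same symbol, 17101792, stood at 1.51, 1.30 and 1.63 against 1.37, 1.52 and 1.76, with a difference of -0.07 (SE 0.14) that was above 0 without TDNC1 replicate 2 or control replicate 3.

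MIR548X had 1.73, 1.44 and 1.55 in TDNC1, against 2.11, 1.82 and 1.88 in the control, a log2 difference of -0.36 (SE 0.12). The groups did not overlap, and TDNC1 replicate 1 and control replicate 2 lay closest. MIR548F2 stood at 4.22, 4.04 and 4.27 against 4.89, 4.67 and 4.32, a difference of -0.45 (SE 0.16). Control replicate 3 was only just above TDNC1 replicate 3. Other loci with the mature strand of MIR548F2 were read too. MIR548F3 had -0.22 (SE 0.11) with no overlap between the groups, and MIR548F1 -0.11 (SE 0.13).

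Several lower values came from bright rows whose arrays disagreed within a group. MIR548H2, the brightest row of the family, stood at 6.01, 5.60 and 6.49 in TDNC1 and at 6.75, 6.90 and 6.08 in the control. The groups overlapped, since replicate 3 of each lay on the side of the other group. The log2 difference was -0.55 (SE 0.28) and -0.77 without TDNC1 replicate 3. MIR548AN stood at 5.95, 5.30 and 5.76 against 5.83, 6.20 and 6.09, a difference of -0.37 (SE 0.19). MIR548AL stood at 5.99, 5.10 and 5.65 against 6.01, 6.26 and 5.07, a difference of -0.20 (SE 0.34), with a wide range in both groups. It was 0.04 without TDNC1 replicate 2 and 0.04 without control replicate 2.

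MIR548O2 differed between the TDNC1 arrays more than between the groups. Row 16913617 stood at 3.73, 3.56 and 5.19 in TDNC1 and at 5.14, 4.82 and 4.69 in the control. TDNC1 replicates 1 and 2 were low and TDNC1 replicate 3 was above every control. The log2 difference was -0.72 (SE 0.41) with all arrays and -1.24 without TDNC1 replicate 3 (limma adjusted p = 0.0943), which is below the adjusted p of any other MIR548 row in that fit. Row 17119272 of the same symbol stood at 4.65, 3.63 and 5.19 against 5.36, 4.68 and 4.88. Its differences were -0.48 (SE 0.39) and, without that array, -0.83. MIR548O, with the same mature strand, had 0.11 (SE 0.18).

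A range of more than 1 between arrays of 1 group was present in 13 of the 49 distinct rows. Row 16753543 of MIR548C ran from 2.06 to 3.92 in TDNC1 and from 2.29 to 4.53 in the control. Its log2 difference of -0.53 (SE 0.65) was 0.06 without control replicate 2 and -1.07 without TDNC1 replicate 3. Row 16972420 of MIR548T ran from 3.41 to 5.41 in TDNC1, with a difference of -0.38 (SE 0.48) that was 0.08 without TDNC1 replicate 3. MIR548L ran from 4.92 to 6.41 in the control, with a difference of -0.41 (SE 0.42). It was 0.07 without control replicate 2. None of these 3 differences was larger than the spread between arrays.

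Symbols with several rows were also compared, although rows of 1 symbol need not report the same locus. Of the 10, MIR548I1 and MIR548AM have 4 rows each and the other 8 have 2. In 4 sets, rows held identical values in all arrays, 9 rows in all. These are 3 rows of MIR548AM and 2 each of MIR548I1, MIR548Q and MIR548A1. The rows of MIR548Q had a log2 difference of -0.53 (SE 0.37) and those of MIR548A1 of -0.32 (SE 0.29). The 2 rows of MIR548S had 0.15 each (SE 0.15 and 0.13), and 0.05 and 0.03 without TDNC1 replicate 3. For MIR548I2, MIR548T and MIR548X2 the rows had opposite signs. Those of MIR548X2 had 0.41 (SE 0.26) and -0.16 (SE 0.25).

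**Figure D4:**
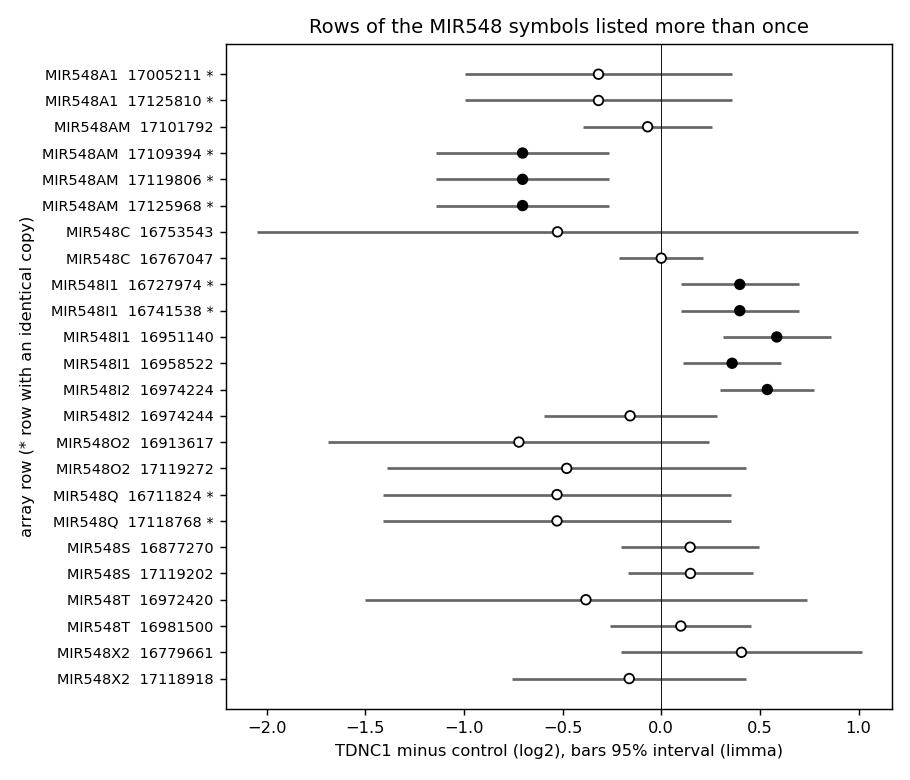
Log2 difference, TDNC1 minus control (horizontal, points), with 95% limma intervals (bars) for each row of the 10 MIR548 symbols that have more than 1 row. Filled points have an unadjusted p under 0.05, and asterisks mark rows that have an identical copy; all rows of MIR548I1 lie right of 0, while those of MIR548I2, MIR548T and MIR548X2 lie on both sides.

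Row order bears on which locus a row reports. Most row numbers follow the genome, as 99.6% of 11428 consecutive rows of protein-coding genes with 1 row had both genes on the same chromosome. In 9 MIR548 rows at least 1 such neighbour was on another chromosome than the gene. Of these, 7 stand at the end of the numbering, beside RPL12, RPL10, RPL31 and PECAM1, where the order of the genome is not kept (0 of 4 consecutive pairs on 1 chromosome). They are rows of MIR548Q, MIR548X2, MIR548S, MIR548O2, MIR548A1 and MIR548AM, and for them row order tells nothing of the locus. MIR548I1 is a chromosome 3 gene, and its rows 16951140 and 16958522 have chromosome 3 genes on both sides. Their neighbours differ (MRPS25 and SH3BP5, and OSBPL11 and KLF15), so these rows stand at different places in the row order. Only chromosomes were compared, so which of them lies at the gene was not checked. The identical rows 16727974 and 16741538 stand between genes of chromosome 11 (GSTP1 and LRP5, and KRTAP5-11 and NUMA1). The locus behind these 2 rows is therefore uncertain. Probe sequences were not used here, so signal shared between close copies of the hairpin was not tested.

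Seeds were compared only among the 28 genes with a mature sequence, on the strands given. The 12 genes without one, MIR548I1 and MIR548I2 among them, are left out, so each set can lack members. Members with the same seed had log2 differences of both signs in 3 of the 5 seeds held by more than 1 of these genes. In the 6 genes read with the seed AAAGUAA the log2 differences ran from -0.21 (MIR548Y) to 0.49 (MIR548J), with 2 rows above 0 and 4 below. In the 5 genes with the seed AAAAACU there were 3 distinct rows above 0 and 4 below, from -0.70 (MIR548AM) to 0.49 (MIR548J), and 4 of these 7 rows (57.1%, all rows 7.70%) had an unadjusted p under 0.05, a small set chosen by its seed. The 3 rows of the MIR548F genes were all below 0, as were those of MIR548F1, MIR548G and MIR548X, which share the seed GCAAAAG. MIR548G, a dim row, had -0.06 (SE 0.23).

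Of the 40 genes, 26 overlap another gene in the GRCh38.p14 gene table, and 23 of these overlap a protein-coding gene. The table gives no exons here, so intron and exon were not told apart. The overlapping genes with a row were 17, all protein-coding, with levels from 3.76 to 9.06. None passed limma's test, and 2 (11.8%) had an unadjusted p under 0.05, near the 7.70% of all rows. ERBB4, the receptor tyrosine kinase gene that holds MIR548F2 on the same strand, stood at 7.83, 7.85 and 7.53 in TDNC1 and at 7.26, 7.34 and 7.40 in the control. Its log2 difference of 0.40 (SE 0.12) had the opposite sign to that of MIR548F2, and the groups did not overlap in either. LPIN1, which encodes a phosphatidate phosphatase and holds MIR548S, had 0.24 (SE 0.10).

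The signs of the members and of the genes that overlap them were set side by side. Of 21 pairs of a distinct MIR548 row and its overlapping gene, 10 had the same sign. Of the 15 pairs whose genes lie on the same strand, 7 had. The strand is that of the named gene, and the strand that a row reports was not checked. Rows 16767047 of MIR548C, 17101792 of MIR548AM and 16981500 of MIR548T stand apart from the overlapping gene in row order. Rows 16753543, 17109394 and 16972420 of the same symbols stand beside it. Row 17119202 of MIR548S, at the end of the numbering, also stands apart from LPIN1, while row 16877270 stands beside it. The rows of MIR548AK, MIR548O and MIR548Q, named genes on the opposite strand, stand apart from SEC61A2, PRKRIP1 and CAMK1D. MIR548J differed by 0.49, while TPST2, a tyrosylprotein sulfotransferase gene on the same strand, had 0.02 (SE 0.11). MIR548AM differed by -0.70 in its identical rows, while CTPS2, which makes CTP, had 0.23 (SE 0.11). MIR548L had -0.41 and MRE11, a nuclease gene of DNA break repair, 0.19 (SE 0.10). MIR548AN had -0.37 and RADX, a gene of replication fork protection whose relative strand is not known here, 0.18 (SE 0.09), with no overlap between its groups. Whether these differences between a member and its overlapping gene are larger than their joint error was not tested.

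**Figure D5:**
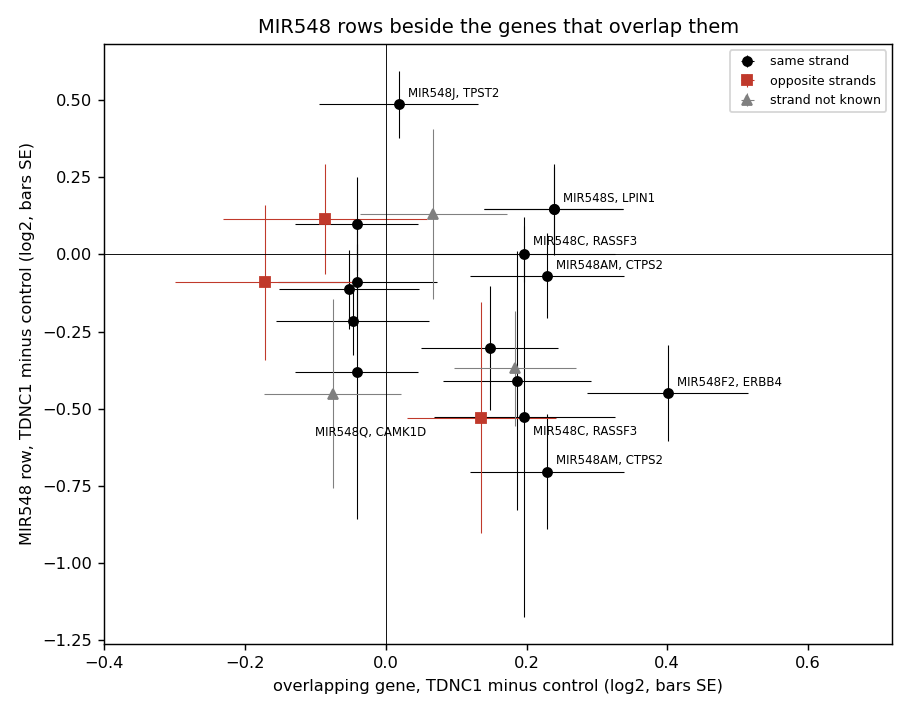
Log2 difference, TDNC1 minus control, of MIR548 rows (vertical) against that of the overlapping gene (horizontal), with SE bars, for 21 pairs. Shapes give the relative strand of the named genes, which was not checked for each row. MIR548F2 lies at -0.45 with ERBB4 at 0.40, and MIR548J at 0.49 with TPST2 at 0.02.

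Of 35 listed genes for proteins that make and use microRNAs, 19 are named in the table and their RNA was measured. DROSHA, DICER1 and the Argonaute genes AGO1, AGO2, AGO3 and AGO4 are among those not analysed here. None of the 19 passed limma's test and 0 had an unadjusted p under 0.05, with a median log2 difference of -0.01 and 7 genes above 0. DGCR8, the partner of DROSHA, had -0.06 (SE 0.14), and XPO5, which exports the hairpins from the nucleus, 0.10 (SE 0.10). The smallest unadjusted p values belonged to SND1, a component of RNA silencing complexes, with 0.21 (SE 0.09), the helicase gene DHX9 with -0.19 (SE 0.10), TARBP2, the partner of DICER1, with -0.19 (SE 0.10), and SRRT with -0.23 (SE 0.14). LIN28B, which binds precursors of let-7, is high in HEK293 cells (above 94.2% of rows here) and had -0.04 (SE 0.11).

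The 19 rows outside the naming rule had log2 differences from -0.45 (MIR548H3) to 0.38 (MIR548I3). The groups did not overlap in 2 of them (10.5%, all rows 13.2%). MIR548AG2 had 0.34 (SE 0.16) and 0.16 without TDNC1 replicate 3, with 2.75, 2.83 and 3.34 in TDNC1, against 2.57, 2.65 and 2.68 in the control, and MIR548H1 had -0.11 (SE 0.09). MIR548K had -0.38 (SE 0.22), MIR548E -0.30 (SE 0.20), MIR548M 0.18 (SE 0.10), MIR548AA1 0.14 (SE 0.11), MIR548A3 0.12 (SE 0.11), MIR548V 0.13 (SE 0.28) and MIR548A2 0.22 (SE 0.47). MIR548W had -0.09 (SE 0.12), MIR548AK -0.09 (SE 0.25), MIR548B 0.10 (SE 0.34) and MIR548AB -0.03 (SE 0.21). None of these had an unadjusted p under 0.05. In 8 of the 19 rows the sign changed when some single array was left out, those of MIR548A2, MIR548AB, MIR548AK, MIR548B, MIR548G, MIR548L, MIR548V and MIR548W. Without TDNC1 replicate 3, MIR548A2 had -0.12, MIR548B -0.05, MIR548G 0.10 and MIR548V 0.32.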

How the data were processed

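The 6 HEK293 samples gave 1 array each. The deposited values are log2 expression, and the submitters' processing notes name RMA and Affymetrix Power Tools as what the authors used; no source used here gives their versions, the annotation or the genome build. RMA equalises the arrays, so a shift of most rows in 1 direction would be removed, and it can compress the differences of dim rows. Arrays have no depth, and 3 per group limit the precision.

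Symbols came from the platform annotation, with current symbols and overlaps from the GRCh38.p14 gene table; strands came from RefSeq's sequence tables. An overlapping gene with several rows would be given by its brightest. Sample titles gave the groups. The difference TDNC1 minus control was fitted over all rows with limma's lmFit and eBayes (version 3.58.1, under R 4.3.3; two-sided, no covariate), with Benjamini-Hochberg adjustment and a threshold of 0.05; the code was checked on simulated arrays. Family counts are descriptions, with no test over the list. The members and lists were chosen with earlier results of these data known.

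The rule for named rows took the 8 members with the smallest p in each direction and the 5 highest and 3 lowest in level. It also took symbols with several rows, rows without overlap that differ by 0.4 or more, and loci that share a mature name. MIR548G was not taken, as its 5' strand has another name than the identical strand of MIR548X. Same-numbered arrays had correlated deviations of 0.04, 0.00 and 0.05, so numbers were not taken as pairs. Alternatives were other variance models, array weights, centring, cyclic loess, a filter on dim rows, the replicate number as a block, left-out arrays, 1 row per symbol and, added after seeing the data, identical rows counted once.

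Listed markers of other cells were read from few rows. The 3 measured fibroblast markers (of 7) lay above 6.12% to 61.4% of rows, the 3 blood markers (of 7) above 32.8% to 66.6% and the 4 pluripotent cell markers (of 5) above 7.52% to 46.8%; 0 were called.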

Additional observations from a re-analysis of the deposited data

How the results depend on the processing

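No MIR548 row, overlapping gene or microRNA machinery gene was called under any of the alternatives where it was read. The filter on dim rows covers fewer rows. The fit with 1 row per symbol was read for the MIR548 symbols only, not for the overlapping genes, the machinery genes or single named rows. Of 35 named rows, 27 kept their direction under all the alternatives that held them. With the replicate number as a block, 13 MIR548 rows had an unadjusted p under 0.05, the same number as without it. That count was 5 of 19 (26.3%, all rows 8.90%) among rows above the lower quartile of row means and 7 of 40 (17.5%, all 7.64%) with 1 row per symbol, where fewer rows were tested, and 7 to 16 with 1 array left out. The family median ran from -0.12 to -0.0082 with 1 array left out. Over all rows, 1 to 23 were called with 1 array left out, the most without TDNC1 replicate 3.

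Rows that changed sign lay near 0 or rested on 1 array, and the cause was not tested. MIR548C row 16767047 had 0.0074 with array weights, 0.0056 with centring, 0.014 with cyclic loess, 0.0004 without both arrays numbered 3, and -0.0354 to 0.0424 with 1 array left out. MIR548I2 row 16974244 had 0.0194 without both arrays numbered 3. With 1 array left out, MIR548T row 16981500 ran from -0.0554 to 0.20, MIR548T row 16972420 from -0.92 to 0.0770, MIR548AL from -0.55 to 0.0417, MIR548AM row 17101792 from -0.16 to 0.0367, MIR548C row 16753543 from -1.07 to 0.0568 and MIR548X2 row 17118918 from -0.38 to 0.13.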
